A study of Mus musculus with 6 samples.

Results

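Collagen I is the main fibrillar collagen of connective tissue, and the RNAs of its chains *Col1a1* and *Col1a2* were read here together with those of 8 genes that process them: the chaperone *Serpinh1*, the hydroxylase genes *P4ha1*, *P4hb*, *Plod1* and *Plod2*, the propeptide-cleavage enhancer *Pcolce*, and the cross-linking enzymes *Lox* and *Loxl1*. These 10 genes were selected on the counts described here, because reads of *Col1a1* and *Col1a2* went separate ways between cultures, so their differences between genotypes and cultures are given as a description and were not tested. The 10 genes were found among the 24421 genes of the count table, and all 10 were among the 13479 genes with enough reads to be compared.

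The RNA came from primary endothelial cell cultures of the stria vascularis, the vascular tissue of the cochlear lateral wall. By the methods of the study, the stria vascularis was taken out together with the spiral ligament to start the cultures. There were 3 *Nhe6*-knockout and 3 wildtype cultures, sequenced as 1 library each. The knockout mice carried a targeted *Nhe6* disruption in their germline, and the wildtype mice carried none. The labels name C57BL/6N as the background of both genotypes, whereas the methods of the study name a C57bl6/j background. Mice were 10 to 12 days old, tissue of at least 6 mice was pooled for a culture, and the cells were sorted by flow cytometry, grown on collagen-coated flasks and left untreated. With 3 cultures in each genotype and pooled mice in each culture, SDs are over cultures and not over animals. Errors marked SE belong to fitted log2 fold changes.

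Normalized counts are reads scaled to a common library size. Between 25587097 and 29126232 reads per library were assigned to genes. Wildtype replicate 2 stood apart, at 106 on the first principal component against -28.5 to -6.52 for the other 5 libraries, and the values without it are given beside those that it moved. Knockout replicates 1 and 2 were closer to each other than any other pair of 1 genotype, with a median chi-square of 1.41 per gene against 6.35 to 22.6 for the other pairs, and were kept as 2 cultures. Of 12 endothelial marker genes, *Cldn5* was at 0 reads in every library, *Tie1* was at or under 3 reads and *Pecam1* had at most 8 reads, while 5 of the 12, *Emcn*, *Eng*, *Cdh5*, *Flt1* and *Tek*, averaged 100 normalized counts or more, as did all 10 fibroblast markers other than collagens. The cell type label was thus only partly borne out by its defining markers.

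A collagen I molecule is a triple helix in which α1 chains, encoded by *Col1a1*, outnumber the α2 chain, encoded by *Col1a2*, and cells that deposit collagen I usually transcribe both genes together. In the endoplasmic reticulum the chains are hydroxylated on proline and lysine and held folded by HSP47. Outside the cell the propeptides are cut off, and lysyl oxidases cross-link the fibrils. Fibroblasts, osteoblasts and activated mural cells are known as rich sources of collagen I, whereas endothelial cells of the brain and inner ear are better known for basement membrane collagens.

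The helical part of both chains is a run of Gly-X-Y triplets, and the start of the longest such run is shown here because a read can be credited to the wrong chain only where the chains share sequence. It begins at codon 168 of 1453 in *Col1a1* (338 triplets) and at codon 97 of 1372 in *Col1a2* (339 triplets). Each stretch of 90 bases is written 5′ to 3′, with the glycine codons in capitals.
Col1a1: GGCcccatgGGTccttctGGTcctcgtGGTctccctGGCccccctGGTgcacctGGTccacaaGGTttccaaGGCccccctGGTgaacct
Col1a2: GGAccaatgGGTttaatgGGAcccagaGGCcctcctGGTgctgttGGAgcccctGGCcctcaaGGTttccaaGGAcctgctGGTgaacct
*Col1a1* lies at chr11:94936224-94953042 and *Col1a2* at chr6:4504814-4541544, both on the plus strand of GRCm38. The *Col1a1* stretch is coding sequence spliced from exons 6 to 8 of 51, within chr11:94939451-94939939, and the *Col1a2* stretch is spliced from exons 6 to 8 of 52, within chr6:4512406-4515516. The stretches had 63 of 90 bases in common, position by position. Over the whole transcripts, the longest identical run was 25 bases, shorter than the 75-base reads. None of the 5856 distinct 75-base words of *Col1a1* or the 5274 of *Col1a2*, nor any of those of the other 8 genes, occurred in a transcript of another gene at 0 mismatches. Transcripts were searched in the sense direction only, so overlaps with genes on the opposite strand were not covered.

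*Col1a2*, the α2 chain gene, was among the most abundant RNAs of every culture. Its normalized counts were 139009, 145886 and 130005 in the knockout and 128108, 186310 and 87347 in the wildtype cultures. The knockout cultures lay inside the range of the wildtype cultures, whose highest value was in replicate 2. The means were 138300 ± 7964 and 133922 ± 49737 (SD, n = 3 each), and the fitted log2 fold change was 0.05 ± 0.33 (SE).

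*Col1a1*, the α1 chain gene, was low in every culture but 1. It had 965, 1228 and 513 normalized counts in the knockout and 207, 27187 and 213 in the wildtype cultures, from 909, 1321, 542, 212, 26345 and 199 reads in the same order. Wildtype replicate 2 was thus 22.1-fold over the highest of the other 5 cultures, while each knockout culture was above the remaining wildtype cultures. Of 11127 genes that averaged 100 normalized counts or more, 19 (0.171%), *Col1a1* itself among them, stood at least as far above the other 5 libraries in wildtype replicate 2.

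The direction between genotypes for *Col1a1* rested on that culture. With all 6 cultures the fitted log2 fold change was -3.35 ± 1.86 (SE), and without wildtype replicate 2 it was 2.10 ± 0.38. *Col1a2* moved from 0.05 to 0.36 ± 0.21 on the same step. In a bulk library, fewer cells of a type and less RNA per cell cannot be told apart.

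**Figure D1:**
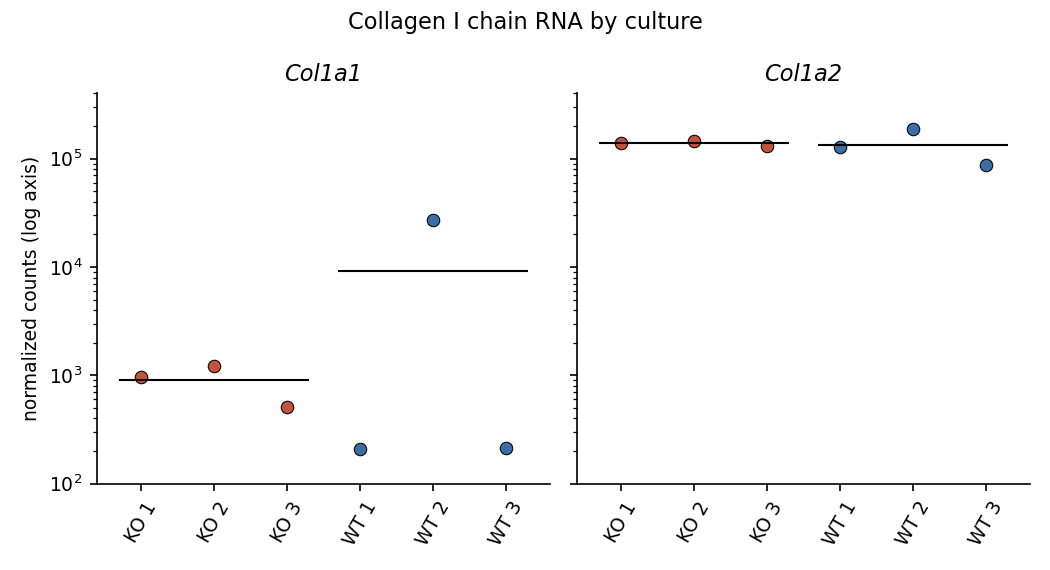
Normalized counts (log axis) of the collagen I chain genes in each of 3 *Nhe6*-knockout (KO) and 3 wildtype (WT) cultures; points are cultures and lines are genotype means. *Col1a2* stays within 2.13-fold across the 6 cultures, while *Col1a1* spans 131-fold, with wildtype replicate 2 at 27187.

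The ratio of the chains within a library does not depend on the scaling between libraries. *Col1a1* made up 0.690% of the collagen I reads in knockout replicate 1 (95% exact binomial interval 0.646 to 0.736), 0.835% in replicate 2 (0.790 to 0.881) and 0.393% in replicate 3 (0.361 to 0.428). In the wildtype cultures it made up 0.162% (0.141 to 0.185), 12.7% (12.6 to 12.9) and 0.243% (0.211 to 0.279). These intervals, which cover counting error only, do not overlap between any of the cultures.

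Expressed the other way, there were 144, 119 and 253 reads of *Col1a2* for each read of *Col1a1* in the knockout cultures, and 618, 6.85 and 410 in the wildtype cultures. Divided by transcript length (5930 bases for *Col1a1* and 5348 for *Col1a2*), *Col1a2* exceeded *Col1a1* 160-, 132- and 281-fold in the knockout and 685-, 7.60- and 455-fold in the wildtype cultures. The α2 chain RNA was therefore in excess in all 6 cultures, and its excess was smallest in wildtype replicate 2.

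Across the 6 cultures the *Col1a1* to *Col1a2* read ratio spanned 90.2-fold, and 5.20-fold without wildtype replicate 2. The mean log2 ratio was -7.35 ± 0.57 in knockout and -6.91 ± 3.59 in wildtype cultures (SD, n = 3 each), a difference of -0.44 that was smaller than the wildtype spread. Without wildtype replicate 2 the difference was 1.63, with each of the 3 knockout ratios above both wildtype ratios.

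Other fibrillar or network collagens whose chains are made as a pair, chosen after these values were seen, gave a frame for the size of that range. The ratio of *Col4a1* to *Col4a2*, the basement membrane chains transcribed from a shared promoter region, lay between 1.52 and 1.89, a 1.24-fold range. The ratio of *Col6a1* to *Col6a2*, chains of the beaded microfibrils, lay between 1.99 and 3.24, a 1.63-fold range. The ratio of *Col5a1* to *Col5a2*, chains that nucleate collagen I fibrils, was 0.894 in wildtype replicate 2 and between 1.79 and 2.40 elsewhere, and its range fell from 2.69-fold to 1.34-fold without that culture.

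**Figure D2:**
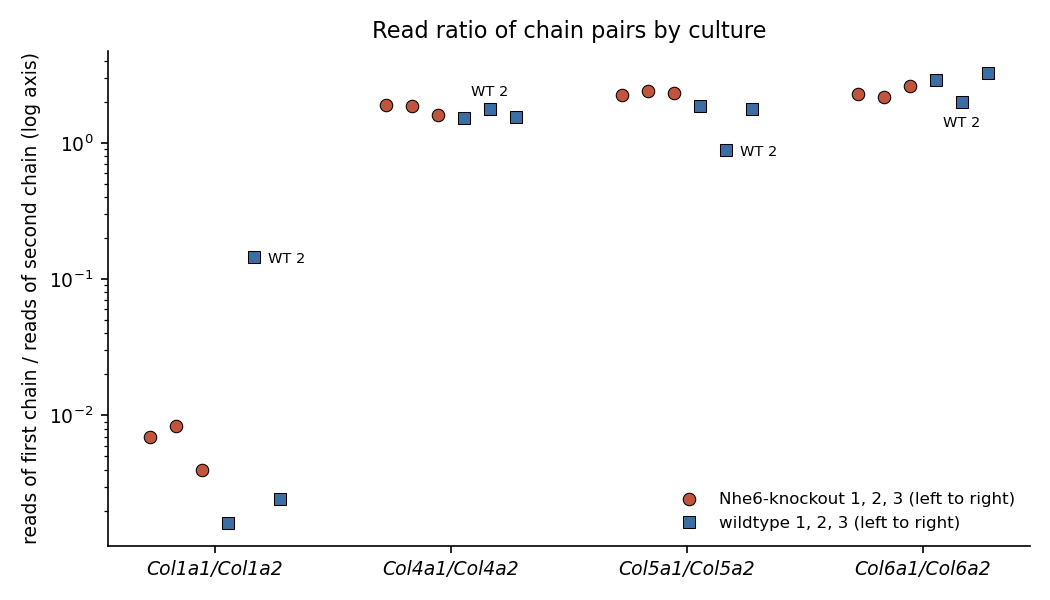
Reads of the first chain gene divided by reads of the second (log axis) for 4 collagen chain pairs, with circles for the 3 *Nhe6*-knockout and squares for the 3 wildtype cultures. The *Col1a1* to *Col1a2* ratio runs from 0.00162 to 0.146 (wildtype replicate 2), whereas the *Col4a1* to *Col4a2* ratio stays between 1.52 and 1.89.

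Marker genes of other cell types also differed in wildtype replicate 2. Genes of the mural list and of the fibroblast list did not move together there, whereas all 7 macrophage and all 4 epithelial genes were lowest there. *Acta2*, the smooth muscle actin gene on the list of 10 mural genes, had 16275 normalized counts there, against 29.3 and 70.6 in the other wildtype and 280, 374 and 1204 in the knockout cultures. Of that list, *Acta2* and *Cspg4* were highest in wildtype replicate 2, whereas *Pdgfrb*, *Rgs5*, *Des*, *Abcc9* and *Mcam* were lowest there. The summed mural list, of which 5 of 10 genes averaged 100 or more, was 29944 there, 16274 and 18147 in the other wildtype cultures and 21886 to 23603 in the knockout cultures. Without *Acta2* the order turned, with 13669 there, 16245 and 18076 in the other wildtype and 21605 to 22399 in the knockout cultures.

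The summed fibroblast list was 156765 there against 95053 and 130053 in the other wildtype and 91575 to 96332 in the knockout cultures, with none of its 10 genes at or near 0. *Fn1* made up most of that sum, and without it the list summed to 54221 there, 41562 and 50963 in the other wildtype and 44076 to 57785 in the knockout cultures. Of the 10 genes, 5 were highest in wildtype replicate 2 (*Fbln2*, *Fn1*, *Thy1*, *Mfap5* and *S100a4*) and 5 were lowest there (*Pdgfra*, *Dcn*, *Lum*, *Fbln1* and *Dpt*).

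The summed endothelial list was 10984 there against 21867 and 22418 in the other wildtype and 15875 to 24533 in the knockout cultures. It was low through *Emcn* (410 normalized counts there, 9900 or more elsewhere) and *Eng*. *Vwf* was also lowest there, at 0, but had at most 25 reads in any library. Of the 12 genes, 6 were highest in that culture: *Cdh5*, *Tek*, *Kdr*, *Flt1*, *Erg* and *Esam*. Among these, *Erg* had at most 15 reads and *Kdr* at most 68 in any library. All 7 macrophage genes were lowest there, and the list summed to 110 against 574 and 1390 in the other wildtype and 547 to 1099 in the knockout cultures, with *C1qa*, *C1qb*, *Ptprc* and *Adgre1* at 0. All 4 epithelial genes were lowest there too, with a sum of 3.10 against 475 and 1088 in the other wildtype and 56.8 to 664 in the knockout cultures.

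The melanocyte list summed to 281 there, 797 and 828 in the other wildtype and 392 to 672 in the knockout cultures. Only *Mitf* of its 5 genes averaged 100 normalized counts or more. *Tyr*, *Dct* and *Mlana* were near 0 except in wildtype replicate 3, which had 24.6, 178 and 33.2. The glia list summed to 665 in wildtype replicate 2, above 500 and 616 in the other wildtype and within 399 to 800 in the knockout cultures. Among 8 osteoblast and chondrocyte markers, the summed level was 3707 there, 5011 and 5506 in the other wildtype and 7051 to 7674 in the knockout cultures, with *Acan* at or under 3 reads in every library. The 10 cell cycle genes summed to 6798 to 12225 in the knockout and 2191 to 3325 in the wildtype cultures, replicate 2 being the highest of these. The part of these cell types or states in the collagen I values was not tested.

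*Serpinh1*, which encodes the collagen chaperone HSP47, was even across the cultures. It had 21109, 21961 and 21255 normalized counts in the knockout and 19223, 15707 and 16225 in the wildtype cultures. The genotypes did not overlap, and the fitted log2 fold change was 0.33 ± 0.15 (SE), or 0.27 ± 0.14 without wildtype replicate 2. The culture with the most *Col1a1*, wildtype replicate 2, had the lowest *Serpinh1*, whereas the culture with the next most, knockout replicate 2, had the highest.

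Prolyl 4-hydroxylase, which stabilizes the triple helix, is built from an α subunit such as the one encoded by *P4ha1* and the β subunit encoded by *P4hb*, which is also protein disulfide isomerase. *P4ha1* had 5803, 5799 and 4996 normalized counts in the knockout and 5836, 7466 and 6095 in the wildtype cultures. All knockout cultures were below all wildtype cultures, although knockout replicate 1 and wildtype replicate 1 lay close together. The fitted log2 fold change was -0.22 ± 0.15 (SE), and -0.11 ± 0.13 without wildtype replicate 2, which had the highest level.

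*P4hb* showed the opposite order. Its normalized counts were 30797, 30796 and 28403 in the knockout and 24272, 28230 and 23110 in the wildtype cultures. The lowest knockout value was just above the highest wildtype value, which was that of replicate 2, and the log2 fold change was 0.25 ± 0.16 (SE) with it and 0.34 ± 0.13 without it.

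*Plod1* and *Plod2* encode lysyl hydroxylases, of which the *Plod1* product acts on the helix and the *Plod2* product on the telopeptides. *Plod1* had 3194, 3250 and 1928 normalized counts in the knockout and 3745, 2299 and 2069 in the wildtype cultures. *Plod2* had 7815, 7508 and 17148 in the knockout and 4147, 6454 and 12053 in the wildtype cultures. Both overlapped between genotypes, *Plod1* being lowest and *Plod2* highest in replicate 3 of either genotype. The fitted log2 fold changes were 0.05 ± 0.30 (SE) for *Plod1* and 0.52 ± 0.49 for *Plod2*, and without wildtype replicate 2 they were -0.06 ± 0.32 and 0.41 ± 0.56.

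*Pcolce* encodes a secreted protein that speeds removal of the carboxyl propeptide. It had 21127, 22685 and 15952 normalized counts in the knockout and 17661, 14803 and 11056 in the wildtype cultures. Knockout replicate 3 was below wildtype replicate 1, and the log2 fold change was 0.46 ± 0.24 (SE), or 0.47 ± 0.26 without wildtype replicate 2. Exons of *Pcolce* overlap those of *Fbxo24* on the same strand and of *Gm36266* on the opposite strand in the GENCODE annotation, so its counts may depend on how shared reads were assigned.

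*Lox* encodes the lysyl oxidase that starts the cross-links of fibrils, and *Loxl1* a relative better known for elastic fibres. *Lox* had 96626, 91296 and 185228 normalized counts in the knockout and 94382, 130924 and 198092 in the wildtype cultures. *Loxl1* had 4607, 5036 and 4367 in the knockout and 5480, 2662 and 3598 in the wildtype cultures. Replicate 3 of each genotype was highest in *Lox*, and the knockout values of *Loxl1* lay within the wildtype range.

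The log2 fold changes were -0.18 ± 0.42 (SE) for *Lox* and 0.26 ± 0.26 for *Loxl1*, and without wildtype replicate 2 they were -0.24 ± 0.44 and 0.04 ± 0.20. *Lox* is overlapped by AC161119.1 and *Plod2* by *Gm38391*, each on the opposite strand. Whether the reads were counted by strand is not given in the sources used here.

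**Figure D3:**
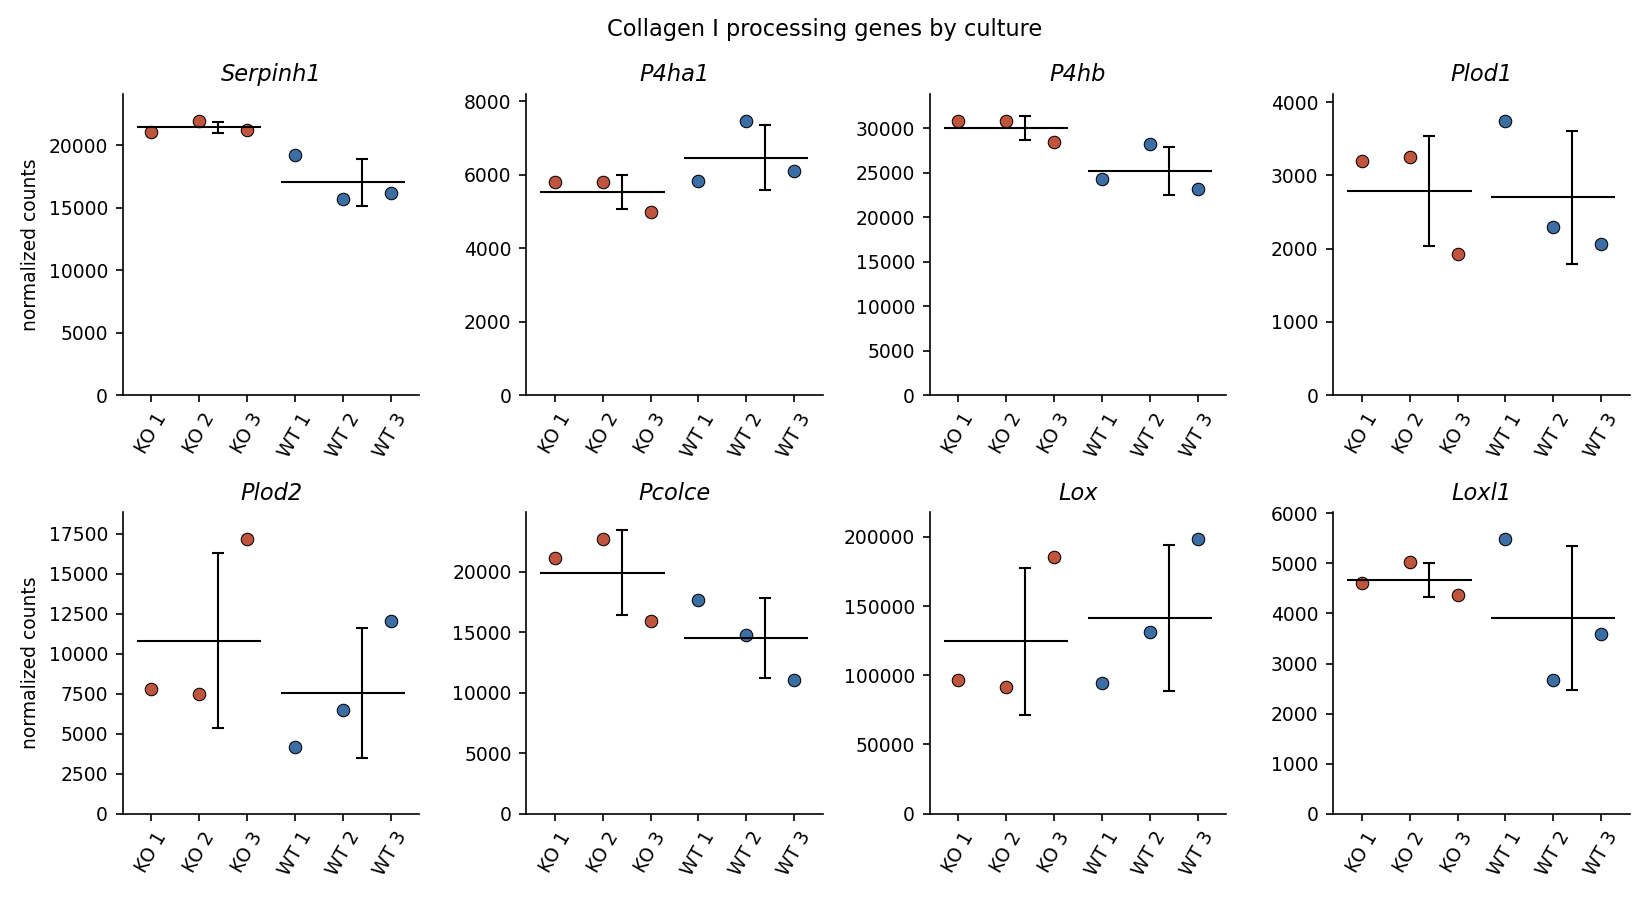
Normalized counts of the 8 collagen I processing genes in each of 3 *Nhe6*-knockout (KO) and 3 wildtype (WT) cultures; points are cultures, lines are means and bars are SDs over 3 cultures. *Serpinh1* and *P4hb* are higher, and *P4ha1* is lower, in every KO than in every WT culture, and *Lox* and *Plod2* are highest in replicate 3 of each genotype.

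Levels of different genes can be set side by side only per length, here as RPKM, reads scaled to library size and to the length of the longest protein-coding transcript. *Col1a2* ranged from 593 to 1264 RPKM over the 6 cultures and *Lox* from 699 to 1516. These highest 2 ranges overlapped each other and lay above those of the other 8 genes. *Pcolce* (247 to 506 RPKM), *P4hb* (293 to 391 RPKM) and *Serpinh1* (251 to 350 RPKM) followed and overlapped among themselves.

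*Plod2* (41.1 to 170 RPKM), *P4ha1* (44.8 to 67.0 RPKM), *Loxl1* (29.3 to 60.3 RPKM) and *Plod1* (21.6 to 41.9 RPKM) formed the next range, in which each neighbour overlapped the next. *Col1a1* had the lowest median, 4.52 RPKM, with 1.27 to 7.51 RPKM in 5 cultures and 166 RPKM in wildtype replicate 2. Among 13381 genes ranked by RPKM in each library, *Col1a2* was between rank 13 and rank 43 and *Lox* between rank 7 and rank 40, whereas *Col1a1* was between rank 7073 and rank 10879 in 5 cultures and at rank 309 in wildtype replicate 2. The chain that is the more abundant partner in the collagen I molecule was thus the rarer RNA.

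In the fit over all genes, 7 of the 10 genes had a log2 fold change above 0 and 3 below, with a median of 0.15, against a median of -0.02 over all genes tested. In edgeR's test 0 of the 10 passed the threshold of 0.05 on the adjusted p, which 0.0668% of all genes tested passed, and 0 of 10 had an unadjusted p under 0.05, as 11.8% of all genes did. DESeq2 called 0 of the 9 genes it gave an adjusted p, with 4.69% of all genes called, and gave none to *Col1a1*. Without wildtype replicate 2, edgeR's test called 0 of 10, with 2.88% of all genes called, and limma-voom called 0 with all cultures. The genotypes did not overlap for 3 of the 10 genes (*Serpinh1*, *P4hb* and *P4ha1*), beside 19.9% of all genes tested. Since the 10 genes were selected on this contrast, nothing is read from these counts.

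**Figure D4:**
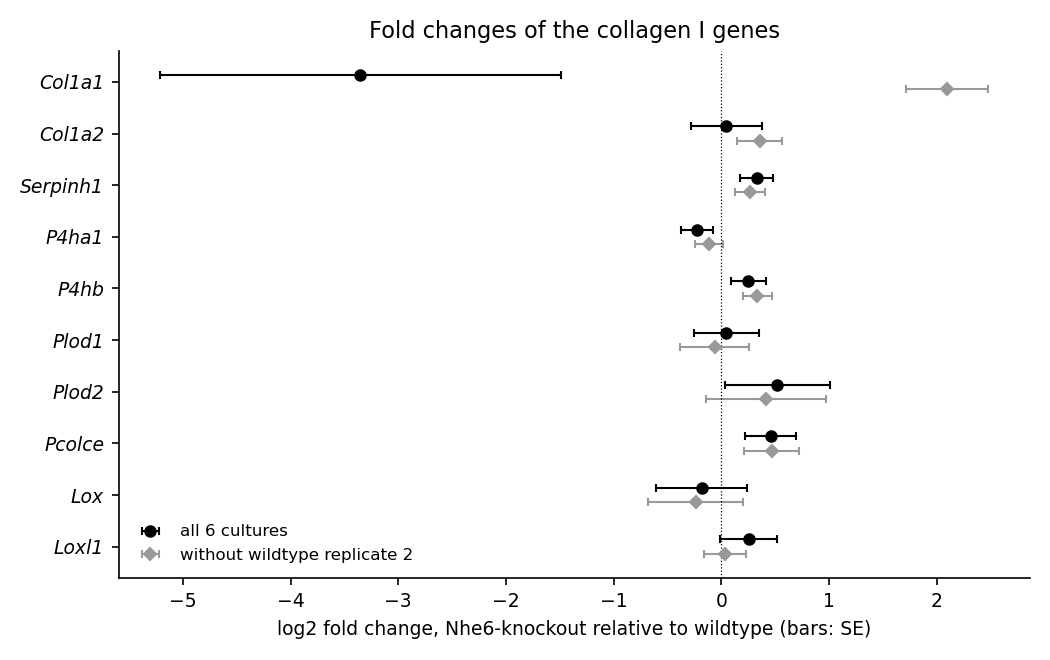
Log2 fold changes (*Nhe6*-knockout relative to wildtype, bars SE) of the 10 genes in edgeR's fit with all 6 cultures (black) and without wildtype replicate 2 (grey). *Col1a1* moves from -3.35 to 2.10, while the other 9 genes stay between -0.24 and 0.52 in both fits.

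The genes whose pattern over the 6 libraries was most like that of the chains were ranked by Pearson's r of log2 counts among 11117 genes that averaged 100 normalized counts or more. For *Col1a1* they were *Hdac4* (r = 0.998), *Rab22a*, *Trim25*, *Cat* and *Slco3a1* (r = 0.995), and 380 genes had r over 0.9. *Trim25* came closest in size as well, with 413, 438 and 234 normalized counts in the knockout and 125, 2714 and 128 in the wildtype cultures, a 21.7-fold range. Without wildtype replicate 2, the r of these 5 genes with *Col1a1* was 0.976 to 0.997. As the genes were picked on all 6 libraries, this is not a separate check of the likeness.

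For *Col1a2* the closest were *Actr1b* (r = 0.999), *Rps19bp1*, *Plec*, *Chtf8* and *Slc35c2* (r = 0.991), and none of them was among the 5 closest to *Col1a1*. For the log2 ratio of the chains they were *Gars* (r = 0.997), *Afg3l2*, *Rab22a*, *Hdac4* and *Nrp2* (r = 0.994). *Nrp2*, a semaphorin and VEGF co-receptor gene, had 225, 254 and 97.5 normalized counts in the knockout and 63.6, 3174 and 101 in the wildtype cultures. These correlations rest on 6 shared libraries, of which 1 stood apart, and are a description without a test.

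Genes of the same pathway that were not among the 10 were taken from 6 lists of 94 genes in all, of which 91 had enough reads. None passed the threshold in edgeR's test or in limma-voom, and 14 higher and 1 lower had an unadjusted p under 0.05, beside 11.8% of all genes tested. DESeq2 called 7 genes, beside 4.69% of all genes, all higher in knockout cultures (*Adamts14*, *Loxl3*, *Col5a1*, *Dcn*, *Fap*, *Scx* and *Sp7*), and edgeR's test without wildtype replicate 2 called 4, beside 2.88% of all genes, all higher (*Adamts14*, *Col5a1*, *Col5a2* and *Fap*). Of the 91 genes, 58 had a log2 fold change above 0, as did 6481 of all 13479 genes tested. Their median was 0.15, or 0.17 without wildtype replicate 2, against -0.02 over all genes tested.

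Of the modification enzymes, 9 of 10 tested genes had a log2 fold change above 0 (median 0.33, and 0.29 without wildtype replicate 2) and 5 had an unadjusted p under 0.05, beside 11.8% of all genes tested. *P4ha3*, another α subunit of prolyl 4-hydroxylase, had 3937, 4286 and 6449 normalized counts in the knockout and 2519, 2476 and 3513 in the wildtype cultures, with a log2 fold change of 0.79 ± 0.24 (SE) and an adjusted p of 0.281 in edgeR's test. *P4ha2*, the remaining α subunit gene, had 1957, 1998 and 2876 against 1093, 1938 and 1044, with a log2 fold change of 0.75 ± 0.29, or 1.09 without wildtype replicate 2. Both were higher in each knockout than in each wildtype culture, the opposite order to *P4ha1*, while 19.9% of all genes tested did not overlap. For *P4ha2* the margin was narrow, 1957 against 1938 in wildtype replicate 2, and its adjusted p was 0.394 in edgeR's test.

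The prolyl 3-hydroxylase genes *P3h1* and *P3h3* had log2 fold changes of 0.29 ± 0.10 (SE) and 0.38 ± 0.14. The other gene with an unadjusted p under 0.05 was *Colgalt1*, which adds galactose to hydroxylysine, at 0.39 ± 0.16. Their adjusted p was 0.331, 0.373 and 0.420 in the order named, by edgeR's test.

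Of 22 tested folding and export genes, 11 lay above 0 and 11 below (median -0.01, and 0.05 without wildtype replicate 2), and 2 had an unadjusted p under 0.05, beside 11.8% of all genes tested. These were *Fkbp10*, a chaperone that works with HSP47, at 0.44 ± 0.16 (SE), and *Pdia6*, a disulfide isomerase, at 0.36 ± 0.14. *Sar1a* and *Sec24d*, parts of the COPII coat that carries procollagen out of the endoplasmic reticulum, had log2 fold changes of -0.26 ± 0.12 and 0.25 ± 0.12.

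Of 6 tested propeptide genes, 4 lay above 0 (median 0.44, and 0.63 without wildtype replicate 2). *Adamts14*, a procollagen amino-propeptidase, had 206, 226 and 136 normalized counts in the knockout and 43.0, 65.0 and 61.0 in the wildtype cultures, with a log2 fold change of 1.75 ± 0.32 (SE) and an adjusted p of 0.106 in edgeR's test, within 9.07e-05 to 0.479 over the alternatives. The more abundant propeptidase genes *Bmp1* (0.37 ± 0.27), *Tll1* (-0.25 ± 0.52) and *Adamts2* (-0.16 ± 0.29) overlapped between genotypes. Without wildtype replicate 2 their log2 fold changes were 0.21, 0.47 and 0.12 in the same order, so that *Tll1* and *Adamts2* changed sign.

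Of 16 cross-linking and fibril assembly genes, 11 lay above 0 (median 0.25, and 0.34 without wildtype replicate 2). *Dcn*, the small proteoglycan decorin that binds collagen I fibrils, had 4050, 3834 and 4835 normalized counts in the knockout and 1971, 1863 and 2513 in the wildtype cultures. Its log2 fold change was 1.00 ± 0.17 (SE), with the lowest adjusted p of the 91 genes in edgeR's test, 0.0952 (5.42e-05 to 0.471 over the alternatives). *Loxl3*, a relative of *Lox*, had 3817, 3762 and 3565 against 2674, 2668 and 2341, a log2 fold change of 0.54 ± 0.11.

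*Col5a1* had 24780, 27947 and 22034 normalized counts in the knockout and 10004, 16225 and 8825 in the wildtype cultures, a log2 fold change of 1.09 ± 0.27 (SE). Its partner *Col5a2* had 11111, 11629 and 9518 against 5409, 18149 and 4937, so that the log2 fold change was 0.18 ± 0.52 with all cultures and 1.05 without wildtype replicate 2. *Col5a2* thus shared with *Col1a1* a high value in that culture, of lesser size. *Fn1*, the fibronectin gene, had a log2 fold change of -0.94 ± 0.37, or -0.70 without wildtype replicate 2.

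Of 13 receptor and breakdown genes, 6 lay above 0, and the median of -0.04 became 0.32 without wildtype replicate 2. *Fap*, a surface protease of activated fibroblasts, had 472, 454 and 377 normalized counts in the knockout and 98.8, 32.0 and 175 in the wildtype cultures, a log2 fold change of 2.09 ± 0.56 (SE) with an adjusted p of 0.224 in edgeR's test (0.00724 to 0.685 over the alternatives). The gelatinase gene *Mmp2* was at 0.61 ± 0.26, the protease gene *Ctsk* at -0.28 ± 0.15 and the collagen receptor gene *Itga10* at -1.23 ± 0.56. Without wildtype replicate 2, *Fap* was at 1.66, *Mmp2* at 0.41, *Ctsk* at -0.30 and *Itga10* at -1.62.

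Of 24 regulators of collagen I transcription and RNA, 17 lay above 0 (median 0.11 with and without wildtype replicate 2). The tendon factor gene *Scx* had 56.3, 75.3 and 40.7 normalized counts in the knockout and 17.6, 15.5 and 11.8 in the wildtype cultures, and the osteoblast factor gene *Sp7* had 53.1, 62.3 and 80.5 against 8.80, 9.29 and 17.1. Both were low and did not overlap between genotypes, beside 19.9% of all genes tested. Like *Col5a2* and *Colgalt1*, they were singled out after their values were seen. *Tgfb2* (0.65 ± 0.42 (SE)), *Tgfb3* (0.49 ± 0.31), *Fli1* (0.64 ± 0.37) and *Creb3l1* (0.62 ± 0.30) overlapped between genotypes, and without wildtype replicate 2 they were at 0.33, 0.23, 0.54 and 0.36.

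**Figure D5:**
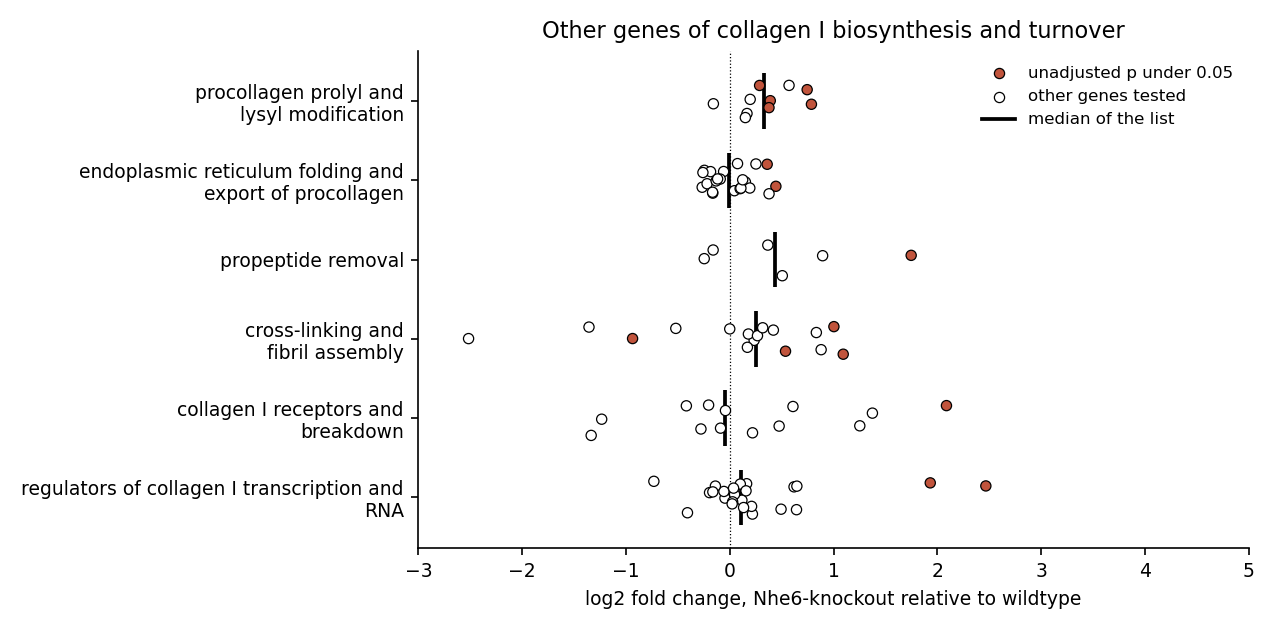
Log2 fold changes (*Nhe6*-knockout relative to wildtype, edgeR) of 91 genes on 6 lists of collagen I biosynthesis and turnover, outside the 10 genes; each point is a gene, filled where the unadjusted p was under 0.05, and the bar is the median of the list. The medians run from -0.04 to 0.44, and no gene passed the threshold after adjustment in edgeR's test.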

How the data were processed

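Stranded libraries of poly(A) RNA, from 3 *Nhe6*-knockout and 3 wildtype cultures, were read with 75 cycles. The authors deposited raw read counts per gene symbol in 1 table. The submitters' processing notes name mm10 (GRCm38), bcl2fastq 2.20.0.422, STAR 2.7.7a, HTSeq 0.13.5 and DESeq2 1.26.0. The 5 summary lines of the table (21.5% to 23.6% of reads per library) were left out of library sizes. Columns were matched to cultures by genotype and replicate number.

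Genes were filtered with filterByExpr (minimum count 10), normalized by TMM and compared in edgeR 4.0.16 (R 4.3.3) by its quasi-likelihood test, without covariates, calling genes at a Benjamini-Hochberg adjusted p under 0.05. The method was tested on simulated data. DESeq2 1.42.0, limma-voom (limma 3.58.1), other scalings and filters, a block, a GC adjustment of the ratio and leaving out each culture were alternatives. Lengths, positions and sequences came from GENCODE M21 on GRCm38. Correlations used log2(normalized count + 0.5). Binomial intervals are Clopper-Pearson at 95%.

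The members, the lists and the alternatives were chosen with earlier results of these data known. Named were the members, the marker genes, up to 4 genes per pathway list by the smallest p among genes that averaged 100 normalized counts or more in a genotype, and the 5 genes most like each chain and their ratio, apart from those said to be named after their values were seen. Quantitative PCR, permeability and protein experiments were not analysed here, and the level of the targeted gene is not reported here.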

Additional observations from a re-analysis of the deposited data

How the results depend on the processing

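Of 140 log2 fold changes of the 10 collagen I genes (14 alternatives each), 137 moved by less than the spread between cultures. The 3 others were all of *Col1a1*, which was -0.33 with limma-voom, 0.21 with a replicate block and 2.10 without wildtype replicate 2, against -3.35. *Plod1* changed sign in 5 alternatives, and *Col1a2* and *Lox* in 1 each. Leaving out 1 of 3 cultures seldom moves a fold change by more than the spread between cultures, so the count of 137 is a weak check. With 1 culture left out, the log2 fold change ran from 0.01 to 1.02 for *Plod2* and from 0.04 to 0.57 for *Loxl1*. For *P4ha1* it ran only from -0.30 to -0.11. The difference in the log2 ratio of *Col1a1* to *Col1a2* ranged from -1.62 to 1.63 with 1 culture left out and was positive only without wildtype replicate 2. It was -0.53 with a GC adjustment and -0.59 with knockout replicates 1 and 2 summed, an alternative chosen after seeing the data. A replicate block and division by transcript length left it at -0.44, but neither can change this difference, so they are no check of it.

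Genes past the threshold numbered 9 (5 lower and 4 higher), and 627 with DESeq2 (245 and 382), 21 with either other filter (9 and 12), 2 with the replicate block, 1 with the summed replicates, and 0 to 395 with 1 culture left out, 395 being without wildtype replicate 2 and 0 without knockout replicate 3; leaving out any 1 of the other 4 cultures gave 1 to 4. Pathway genes past the threshold numbered 0, 7 with DESeq2, and 0 to 4 with 1 culture left out, the 4 again without wildtype replicate 2; the other alternatives gave 0. The cause of these changes was not tested. For pairing, each gene's log2 level was taken as its deviation from the mean of its genotype. These deviations correlated at 0.207, -0.189 and 0.111 between same-numbered cultures, so the numbers were not taken as pairs. Not every culture correlated best with its own number.

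Limits: low *Col1a1* rests on 199 to 212 reads in 2 wildtype cultures. With 3 cultures a genotype, the smallest exact two-sided permutation p is 0.1. The labels do not say whether cultures came from separate litters, so p-values measure the spread between these cultures.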
